A study of Homo sapiens with 11 samples.

Results

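The genes described here are 8 receptor genes of semaphorin signalling, the plexins PLXNA1, PLXNA2, PLXNA4, PLXNB1, PLXNC1 and PLXND1 and the neuropilins NRP1 and NRP2, among the 23167 gene identifiers counted in each RNA-seq library. They were chosen by name, with earlier results of these data known. PLXNA4 leads the set because the study examined mH2A1.1 occupancy of a region in it by ChIP-qPCR, so that the peaks over PLXNA4 are given as a description only. All values come from MDA-MB-231, an established triple-negative breast cancer cell line derived from a pleural effusion. RNA-seq covered 2 WT libraries, from cells that received the transfection reagent INTERFERin with no siRNA, and 2 mH2A1.1 KD libraries, from cells that received 11 nM siRNA against mH2A1.1 with the same reagent, both for 3 days. As the WT cells received no control siRNA, an effect of siRNA delivery and an effect of mH2A1.1 loss cannot be told apart here. ChIP-seq came from untreated cells, with 1 library for mH2A1.1 (a custom polyclonal antibody) and 1 for total mH2A1. No label says that the libraries of a group came from separate cultures, so p-values measure only the spread between these libraries, which may be technical.

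Plexins are single-pass membrane receptors for semaphorins, and their cytoplasmic part inactivates small GTPases of the Ras and Rap families, which loosens integrin adhesion and remodels the cytoskeleton. Secreted class 3 semaphorins usually bind a neuropilin, a co-receptor with a short cytoplasmic tail, which passes the signal to a plexin of class A or D. Neuropilins also bind members of the VEGF family. In the nervous system the system steers axons, and in carcinoma cells it is known for effects on migration and on blood vessel growth. The histone variant macroH2A1 exists as the splice isoforms mH2A1.1 and mH2A1.2, whose common gene is MACROH2A1.

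Library totals ranged from 2309549 counts in KD replicate 2 to 9794674 in WT replicate 1. KD replicate 2 held 30 counts on chromosome 21 and 0 on chromosomes 22 and X, where the other libraries held at least 44311, 96666 and 226172. Genes of those chromosomes were therefore left out of the fit, and none of the 8 genes lies there. The WT libraries correlated at r = 0.994 and the KD libraries at r = 0.959 across genes (log2 CPM, where CPM is the count scaled to a common library size of 1e6 reads). MACROH2A1 (ENSG00000113648), the targeted gene, whose count joins both isoforms, measured 385 and 394 CPM in WT and 274 and 300 CPM in KD, so that both KD libraries lay below both WT libraries, with a log2 fold change of -0.44 ± 0.17 (SE) that did not pass the edgeR test (adjusted p = 0.205). Of the 8 markers listed for the line, VIM, CD44 and AXL held 2979 or more counts in every library. SPARC, by contrast, held only 8 and 7 counts in WT and 2 and 6 in KD and did not reach the fit. The luminal hormone receptors ESR1 and PGR were at 0 throughout. The keratins KRT8, KRT18 and KRT19, listed here as luminal or epithelial markers, held 1389 or more counts in every library, and DESeq2 called these 3 genes higher in KD, whereas edgeR called 0 of the 7 tested markers of that list (3 at an unadjusted p under 0.05). VIM was likewise called higher by DESeq2 (log2 fold change 0.66, adjusted p = 0.0992), as 1 of the 7 markers listed for the line that it adjusted. Of all 7765 genes that DESeq2 adjusted, 5.52% were called higher. With the GC and length offsets described further on, edgeR called KRT8 (log2 fold change 0.72, adjusted p = 0.0337) and KRT19 (0.59, adjusted p = 0.0337) higher, beside 2.19% of all genes. VIM was not called with offsets (0.52, edgeR adjusted p = 0.122). Of the 10 markers of other cell types that the tables list (blood, endothelium, neurons, glia), MAP2 was the most counted, with at most 95 reads in a library, and only 3 of them reached the fit.

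Sequences before annotated starts are shown for 4 of the genes, since the peaks described further on bear on these windows. The GC content of exons used further on is a separate measure. Each run holds the 250 bases upstream of a start, 5′ to 3′ in the direction of transcription, and capitals mark GGGCGG or its reverse complement CCGCCC, the GC box that factors of the SP family can bind. Overlapping matches were each counted. The PLXND1, PLXNA1 and PLXNC1 runs are RefSeq promoter sequences (GRCh38.p14), and the PLXNA4 run was read from the GRCh38 genome at the GENCODE start of the gene. They lie at chr7:132648689-132648938 (minus strand, PLXNA4), chr3:129606677-129606926 (minus strand, PLXND1), chr3:126982865-126983114 (plus strand, PLXNA1) and chr12:94148327-94148576 (plus strand, PLXNC1).
PLXNA4: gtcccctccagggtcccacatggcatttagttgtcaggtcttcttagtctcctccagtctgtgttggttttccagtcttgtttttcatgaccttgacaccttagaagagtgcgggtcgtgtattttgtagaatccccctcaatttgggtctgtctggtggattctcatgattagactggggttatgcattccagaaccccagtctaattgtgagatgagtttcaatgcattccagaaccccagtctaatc
PLXND1: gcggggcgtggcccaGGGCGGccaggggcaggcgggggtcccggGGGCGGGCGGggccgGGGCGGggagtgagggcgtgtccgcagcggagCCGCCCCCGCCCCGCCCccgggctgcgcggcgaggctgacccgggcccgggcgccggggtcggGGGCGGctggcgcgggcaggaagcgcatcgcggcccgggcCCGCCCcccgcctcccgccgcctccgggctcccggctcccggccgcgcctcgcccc
PLXNA1: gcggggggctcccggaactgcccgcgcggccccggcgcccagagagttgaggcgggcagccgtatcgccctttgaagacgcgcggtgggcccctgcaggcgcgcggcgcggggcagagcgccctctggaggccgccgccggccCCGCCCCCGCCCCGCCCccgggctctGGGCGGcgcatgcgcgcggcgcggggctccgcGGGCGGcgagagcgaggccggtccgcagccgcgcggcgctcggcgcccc
PLXNC1: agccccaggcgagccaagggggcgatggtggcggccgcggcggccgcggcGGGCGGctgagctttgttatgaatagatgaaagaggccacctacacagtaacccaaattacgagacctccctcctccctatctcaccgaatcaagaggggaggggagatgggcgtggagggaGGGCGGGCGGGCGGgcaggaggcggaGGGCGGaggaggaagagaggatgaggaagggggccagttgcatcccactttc
The PLXNA4 window held 2 CG dinucleotides, 46.4% GC and 0 GC boxes. PLXND1 held 41 CG dinucleotides, 88.8% GC and 9 GC boxes, PLXNA1 46, 84.4% and 5, and PLXNC1 18, 65.2% and 5. Among 35116 RefSeq promoter windows of the same length, 42.6% held the motif on either strand, and the median window held 11 CG dinucleotides and 58.0% GC. A match is only a match of letters. The PLXNA4 window also contains the first bases of FLJ40288, a long non-coding RNA gene on the opposite strand that starts at chr7:132648794. RefSeq places the PLXNA4 start elsewhere, at chr7:132576470, where the upstream window held 23 CG dinucleotides, 63.6% GC and 0 GC boxes. The PLXNA1 run precedes the RefSeq start at chr3:126983115. It lies downstream of the GENCODE start, chr3:126982693, and so inside the gene body as used further on.

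Which of these receptors does the line express? Levels are compared between genes as CPM per kb of summed exon length. NRP1 was highest in WT, at 64.2 and 63.4, followed by PLXNA1, at 48.7 and 49.8. Both lay above more than 93% of the 10963 genes tested, with percentiles of 95.9 and 93.9. PLXND1, the receptor of SEMA3E, came next at 8.10 and 7.84, a level 6.18-fold under PLXNA1. PLXNA2 measured 3.48 and 3.72 and NRP2, a neuropilin that binds VEGFC, 2.45 and 2.82. The lowest were PLXNB1, the receptor of SEMA4D, at 1.00 and 0.714, PLXNA4 at 0.482 and 0.619, and PLXNC1, a receptor of SEMA7A, at 0.315 and 0.472. In WT no neighbours in this order overlapped, but PLXNA4 and PLXNC1 were separated by only 0.482 against 0.472 and rest on 30 to 77 reads per WT library. The order of the leading pair held in KD replicate 1 (NRP1 45.0, PLXNA1 38.6) and was inverted in KD replicate 2 (38.7 and 78.6).

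**Figure D1:**
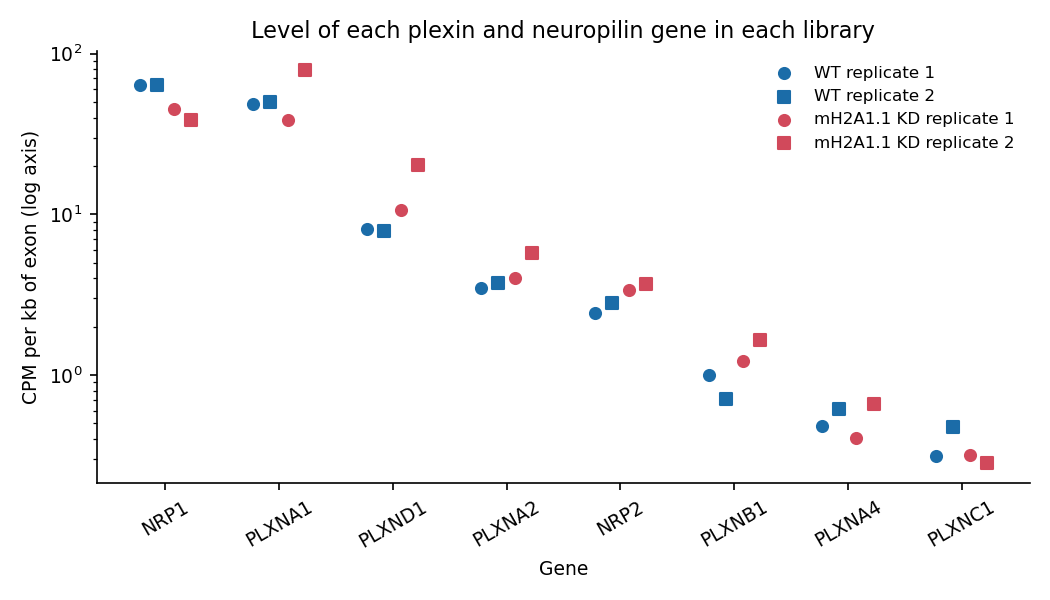
Level of the 8 genes in each library, in CPM per kb of exon on a log axis, with WT libraries in blue and mH2A1.1 KD libraries in red, ordered by the WT mean. NRP1 lies lower in both KD libraries, PLXND1 lies higher in both, and the 2 KD values of PLXNA1 lie on either side of the WT values.

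The remaining plexins of the genome are on the chromosomes that KD replicate 2 lacks and could not be tested. PLXNB2 (chromosome 22) had 2374 and 2042 counts in WT and 1591 in KD replicate 1, PLXNA3 (X) had 1458, 1156 and 1091, and PLXNB3 (X) had 472, 352 and 266. Per kb of exon, the WT means were 35.6 CPM for PLXNB2, 13.0 for PLXNA3 and 6.84 for PLXNB3. By that measure PLXNB2 was the second plexin of the line after PLXNA1. Relative to the WT mean, KD replicate 1 differed by 0.21 (PLXNB2), 0.43 (PLXNA3) and 0.07 (PLXNB3) on the log2 scale, with no replicate check.

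Do the receptor genes change when mH2A1.1 is knocked down? With edgeR's quasi-likelihood test and Benjamini-Hochberg adjustment over 10963 genes, 0 of the 8 genes passed (a call needed more than a 1.5-fold difference at an adjusted p below 0.1), as did 0.0% of all genes. In such bulk samples, fewer cells that express a gene and less RNA per cell cannot be told apart. An unadjusted p under 0.05 was reached by 2 of the 8 genes, PLXND1 higher and NRP1 lower. Of all 10963 genes, 1290 were higher and 1250 lower at that p, so the share among the 8 genes was close to that of all genes. DESeq2 called the same 2 genes of the 5 for which it gave an adjusted p. Of all 7765 genes with such an adjusted p, it called 5.52% higher and 5.73% lower. DESeq2 gave no adjusted p for PLXNA4, PLXNB1 and PLXNC1. In 4 genes both KD libraries lay above both WT libraries (PLXNA2, PLXNB1, PLXND1 and NRP2), against 32.5% of all genes. NRP1 alone had both below, against 32.4% of all genes. The median log2 fold change of the 8 genes was 0.33, and that of all genes 0.01. With the GC and length offsets described further on, the median of the 8 genes turned to -0.11, and that of all genes stayed at 0.01.

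NRP1, a co-receptor of SEMA3A and VEGFA, measured 739 and 730 CPM in WT and 518 and 446 CPM in KD. The KD values lay together under the WT values with no overlap. The means were 735 ± 6.44 and 482 ± 51.0 (SD, n = 2 each), a log2 fold change of -0.61 ± 0.18 (SE, edgeR adjusted p = 0.194, DESeq2 adjusted p = 0.0756). NRP2 differed the other way, with 34.0 and 39.2 CPM in WT and 47.0 and 51.0 CPM in KD. Its groups did not overlap either, and its log2 fold change was 0.42 ± 0.19 (edgeR adjusted p = 0.235).

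PLXND1, which takes SEMA3E signals without a neuropilin and joins neuropilins for other class 3 ligands, measured 77.4 and 75.0 CPM in WT, then 102 CPM in KD replicate 1 and 193 in KD replicate 2. Both KD values were above WT, but they differed from each other by more than KD replicate 1 differed from WT. The log2 fold change was 0.94 ± 0.30 (edgeR adjusted p = 0.194, DESeq2 adjusted p = 0.0501). With KD replicate 2 left out it was 0.42 in DESeq2, and with KD replicate 1 left out 1.30, each from a lone KD library. PLXNB1, which can signal through RhoA and pairs with MET, had only 93, 53, 63 and 34 reads in WT replicates 1 and 2 and KD replicates 1 and 2. That gave 9.78, 6.97, 11.9 and 16.1 CPM and a log2 fold change of 0.68 ± 0.29 (edgeR adjusted p = 0.219). PLXNC1 had 30, 36, 17 and 6 reads in the same order, or 3.16, 4.73, 3.21 and 2.84 CPM. KD replicate 1 fell inside the WT range, and the log2 fold change of -0.33 ± 0.38 (edgeR adjusted p = 0.588) was smaller than its error. Its last bases overlap CEP83 on the other strand, and reads there could belong to either gene if counting did not use the strand.

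Among the class A plexins, the signalling partners of neuropilins for class 3 semaphorins, PLXNA1 was the most abundant. It measured 547 and 559 CPM in WT, 434 CPM in KD replicate 1 and 883 CPM in KD replicate 2, so that the KD libraries lay on opposite sides of WT. The fitted log2 fold change of 0.25 ± 0.32 (edgeR adjusted p = 0.633) averages these. In DESeq2 it was -0.35 without KD replicate 2 and 0.63 without KD replicate 1, each from a lone KD library. PLXNA2 measured 48.2 and 51.5 CPM in WT and 55.5 and 79.4 CPM in KD, without overlap, for a log2 fold change of 0.42 ± 0.22 (edgeR adjusted p = 0.279). PLXNA4 had 75 and 77 reads in WT and 35 and 23 in KD. In CPM, the WT values of 7.89 and 10.1 lay between the KD values of 6.61 and 10.9. Its log2 fold change was -0.13 ± 0.32 (edgeR adjusted p = 0.809), and no change of PLXNA4 was detectable at this depth.

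The GC content of exons moved with these differences. All tested genes were split into 5 equal bins by GC content. In the bin with the highest GC content, the median gene was higher by 0.18 in KD replicate 1 and by 0.73 in KD replicate 2 on the log2 scale relative to the WT mean. In the bin with the lowest, the medians were -0.25 and -0.79. PLXNA1 (61.7% GC), PLXNB1 (61.6%) and PLXND1 (60.8%) belong to the highest bin, PLXNA2 (53.9%) and PLXNA4 (52.2%) to the next, NRP2 (48.7%) and PLXNC1 (46.9%) to the middle one, and NRP1 (43.5%) to the one under it. Against their own bin, PLXND1 in KD replicate 2 stood at 1.33 with a median of 0.73, and NRP1 at -0.72 with a median of -0.40. PLXNA1 in KD replicate 2, at 0.67, was close to that median of 0.73, while in KD replicate 1 it was at -0.35 with a median of 0.18.

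**Figure D2:**
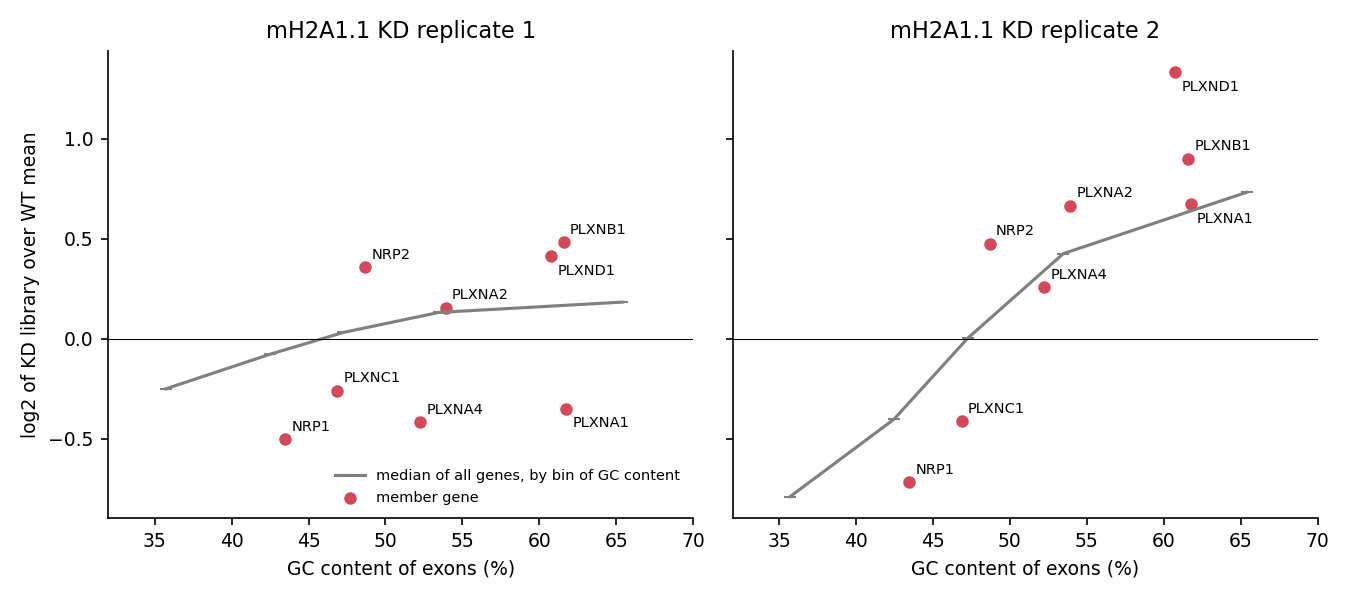
Log2 ratio of each mH2A1.1 KD library to the WT mean (pseudocount 0.5 CPM) against the GC content of exons in percent, one panel per KD library, with the 8 genes in red and the median of all tested genes in each of 5 bins of GC content in grey. The grey line is steeper in KD replicate 2, where PLXND1 lies at 1.33 and NRP1 at -0.72.

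With smooth trends of GC content and exon length removed from each library, the differences of PLXND1, PLXNB1 and PLXNA2 shrank, and that of PLXNA1 changed sign. The corrected level of PLXNA1 was 660 and 643 CPM in WT and 451 and 605 CPM in KD, with both KD libraries now under both WT libraries. Its log2 fold change turned to -0.30 ± 0.15 (edgeR adjusted p = 0.234). PLXND1 went from 92.7 and 85.6 CPM in WT to 105 and 135 CPM in KD, which left a log2 fold change of 0.42 ± 0.13 (edgeR adjusted p = 0.108). PLXNA2 was left with 0.08 ± 0.11 and PLXNB1 with 0.25 ± 0.24, and in both genes the groups then overlapped.

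Neuropilins kept their directions under the correction. NRP1 measured 681 and 696 CPM in WT against 509 and 515 CPM in KD, with a log2 fold change of -0.43 ± 0.10 (edgeR adjusted p = 0.0634), which is under the 1.5-fold limit. NRP2 measured 35.4 and 40.7 CPM in WT against 46.7 and 47.5 CPM in KD (0.31 ± 0.12, edgeR adjusted p = 0.168). PLXNA4 stood at -0.40 ± 0.25 and PLXNC1 at -0.34 ± 0.37, with overlapping groups. After correction 0 of the 8 genes passed in edgeR and 0 in DESeq2, beside 2.19% of all genes called higher and 3.17% called lower in edgeR. Both KD libraries lay above WT for 2 genes (all genes: 30.6%) and below for 2 (all genes: 29.3%), the first being PLXND1 and NRP2 and the second NRP1 and PLXNA1.

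**Figure D3:**
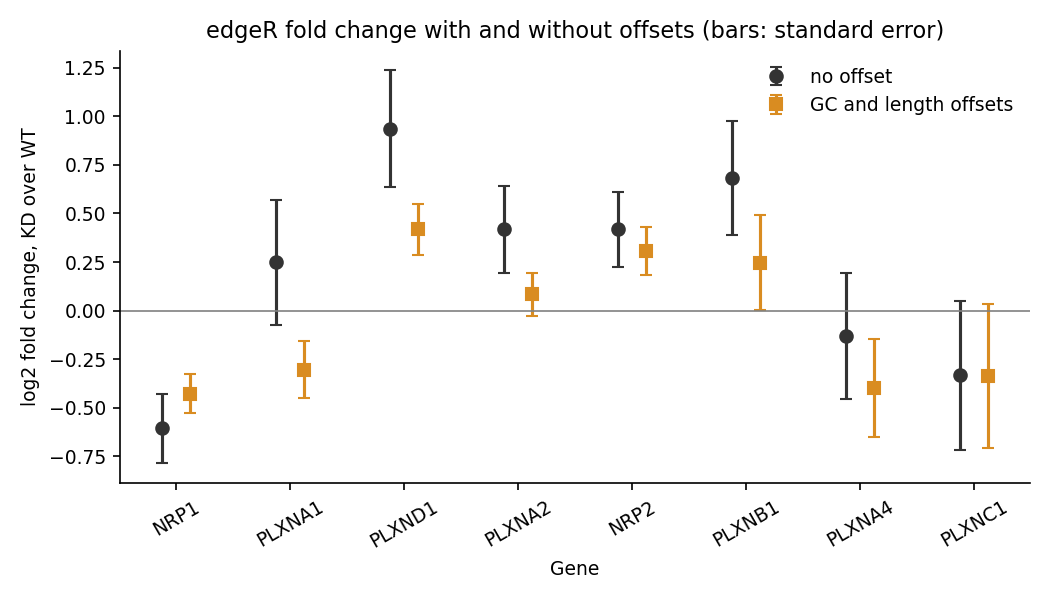
Log2 fold change of mH2A1.1 KD over WT with its standard error (edgeR, 2 libraries per group), without offsets (black circles) and with GC and length offsets (orange squares). PLXNA1 moves from 0.25 to -0.30 and PLXND1 from 0.94 to 0.42, while NRP1 stays negative at -0.61 and -0.43.

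Where are mH2A1.1 and total mH2A1 on these genes? The deposited peaks lie on a 3000-bp grid and carry no usable score, so that only position and covered length are given, from 1 library per antibody. An mH2A1.1 peak overlapped the body of 8 of the 8 genes, against 62.4% of all protein-coding genes and 75.6% of those of 100 kb or more. A peak lay within 500 bp of the annotated start in 7 of 8 genes, NRP1 being the exception, against 38.6% of protein-coding genes. Total mH2A1 had a peak there in 2 of 8, PLXNA2 and PLXNC1, against 21.3%. The median share of the gene body under mH2A1.1 peaks was 22.1% for the 8 genes and 5.40% for all protein-coding genes. PLXNA4, included because the study examined a region in it, is among the 8 genes in each of these comparisons. The protein-coding genes compared include silent ones, whereas all 8 genes were expressed enough to be tested. The paper reports that mH2A1.1 enrichment at gene starts rises with transcription. Shares over expressed genes alone are not given here.

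PLXNA4 (chr7:132123340-132648688, minus strand, 525349 bp) was the most covered gene of the set. Its body met 16 mH2A1.1 peaks over 55.5% of its length and 12 mH2A1 peaks over 65.0%. Coverage was higher than in 97.6% (mH2A1.1) and 98.3% (mH2A1) of protein-coding genes of 100 kb or more. The widest mH2A1.1 peak, of 75.0 kb, spans chr7:132189001-132264000, with 60.0% of it also under mH2A1 peaks. The next, of 54.0 kb at chr7:132465001-132519000, lies wholly inside the widest mH2A1 peak, of 87.0 kb at chr7:132435001-132522000. Another of 36.0 kb at chr7:132144001-132180000 was likewise wholly shared. In all, 11 of the 16 mH2A1.1 peaks overlapped an mH2A1 peak.

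Exons and starts of PLXNA4 both carried peaks. Over the main transcript (ENST00000321063, 32 exons), 24 exons touched mH2A1.1 peaks and 27 touched mH2A1 peaks, whereas 8 of its 13 mH2A1.1 peaks lay in introns only. At the GENCODE start, whose upstream sequence is printed above, a 9.0-kb mH2A1.1 peak (chr7:132648001-132657000) covered the start and the nearest mH2A1 peak was 5313 bp away. At the start of the main transcript, chr7:132576470, a single 3.0-kb mH2A1.1 bin and a 30.0-kb mH2A1 peak both covered it. The 5 protein-coding genes of 300 kb or more, out of 825, with the most similar pair of covered shares were CUX2 (2.22 percentage points away), RBFOX3 (3.65), IQSEC1 (9.31), ATP2B2 (11.3) and CACNA1A (12.1). CUX2, RBFOX3 and CACNA1A had 0 counts in both WT libraries, ATP2B2 had 11 and 9, and IQSEC1 had 472 and 436.

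Other members were covered less and in other places. PLXNA2 (chr1:208022242-208244384) met 11 mH2A1.1 peaks over 36.5% of its body and 4 mH2A1 peaks over 28.1%, with both antibodies at the start. At PLXND1 (chr3:129555214-129606676), a 24.0-kb mH2A1.1 peak extended 17.3 kb upstream of the start and 6.68 kb into the gene, over the whole GC-box-rich window printed above, and total coverage was 30.0% and 17.1% for mH2A1.1 and mH2A1. PLXNA1 (chr3:126982693-127037389) had a 30.0-kb mH2A1.1 peak that reached only 1.31 kb past its start, so that 2.39% of the body was covered, and 0 mH2A1 peaks over the body. PLXNB1 (chr3:48403854-48430086) was similar at its start, with a 24.0-kb mH2A1.1 peak reaching 4.09 kb inside and 15.6% covered, while mH2A1 peaks covered 50.1%.

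At PLXNC1 (chr12:94148577-94307675), peaks of both antibodies adjoined near the start. A 3.0-kb mH2A1 bin (chr12:94146001-94149000) covered the start and the upstream window printed above, and a 27.0-kb mH2A1.1 peak (chr12:94149001-94176000) began 424 bp downstream, with 0 bases in common. The paper reports that the total mH2A1 antibody recognises both isoforms, with less affinity for tagged mH2A1.1 than the custom antibody. Adjoining calls on the 3000-bp grid do not by themselves show a boundary. The neuropilins had smaller shares under total mH2A1 than the plexins other than PLXNA1, although above the median of 1.06% over protein-coding genes of 100 kb or more. NRP2 (chr2:205681990-205798133) had 4 mH2A1.1 peaks over 21.5%, including a 9.0-kb peak at its start, and 2 mH2A1 bins over 5.17%. NRP1 (chr10:33177492-33336262) had 6 mH2A1.1 peaks over 16.7%, 5 of them a single bin wide, and 1 mH2A1 bin over 1.89%. None of the mH2A1.1 peaks of NRP1 or NRP2 shared a base with an mH2A1 peak, although both genes also had directly adjoining peaks. At NRP1 the mH2A1.1 bin chr10:33225001-33228000 adjoined the mH2A1 bin chr10:33222001-33225000. At NRP2 the mH2A1.1 bin chr2:205698001-205701000 adjoined the mH2A1 bin chr2:205701001-205704000. The mH2A1.1 peak nearest to the NRP1 start began 15262 bp from it.

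**Figure D4:**
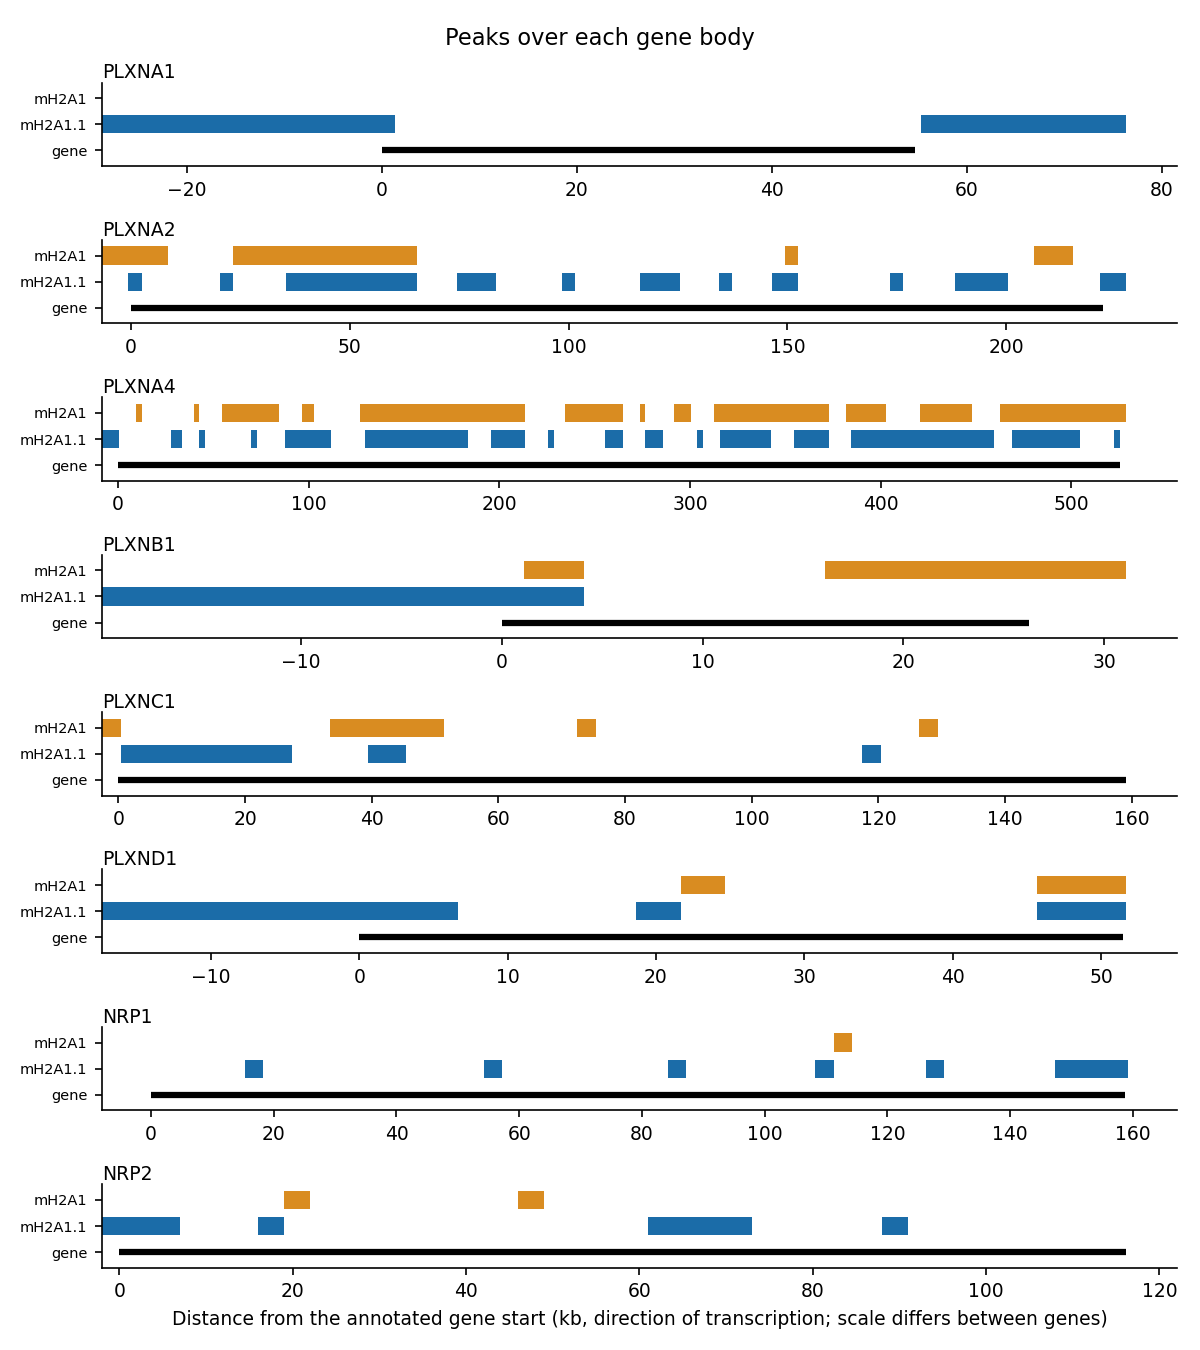
Peaks of mH2A1.1 (blue) and total mH2A1 (orange) that overlap each gene or lie within 1 kb of it, drawn as distance in kb from the annotated gene start in the direction of transcription, with the gene body in black and a separate scale for each gene. PLXNA4 is covered over 55.5% and 65.0% of its length, whereas the mH2A1.1 peak that overlaps the body of PLXNA1 and that of PLXNB1 sit over the start, and a second PLXNA1 peak begins past the end of the gene.

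Set beside the levels, the most covered gene, PLXNA4, was among the 2 lowest in WT, and the highest genes, NRP1 and PLXNA1, had 16.7% and 2.39% of the body under mH2A1.1. PLXNC1, the lowest gene, was at 22.6%. When only mH2A1.1 peaks that overlap an mH2A1 peak were kept, which is the set the study used, the covered share was 50.9% for PLXNA4, 24.2% for PLXND1, 17.3% for PLXNA2, 15.6% for PLXNB1, 3.77% for PLXNC1, 2.39% for PLXNA1 and 0% for both neuropilins. Such common peaks overlapped the body of 6 of the 8 genes and lay at the start of 5. The share of all protein-coding genes with common peaks is not given here, so these counts have no background.

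The ligands and partners of these receptors were examined as lists. Of 20 semaphorins, 15 were tested and 0 passed in edgeR, with a median log2 fold change of 0.12 (0.01 with GC and length offsets). At an unadjusted p under 0.05, 2 were higher and 0 lower, beside 1290 genes higher and 1250 lower of the 10963. DESeq2 called 2 of the 9 it adjusted, both higher, beside 5.52% called higher of the 7765 genes it adjusted in all. The 4 highest in WT per kb of exon were SEMA3C, SEMA7A, SEMA3B and SEMA6B. SEMA7A, the ligand of PLXNC1 and of integrins, measured 78.9 and 87.8 CPM in WT and 144 and 213 CPM in KD. Its groups were well apart, with a log2 fold change of 1.09 ± 0.23 (edgeR adjusted p = 0.176, DESeq2 adjusted p = 0.0057), and it was called higher with offsets in edgeR (0.63 ± 0.09, adjusted p = 0.0225).

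SEMA3C, a secreted ligand of neuropilins, measured 157 and 150 CPM in WT and 180 and 134 CPM in KD (0.04 ± 0.20, edgeR adjusted p = 0.910). SEMA3B, another class 3 ligand, measured 58.7 and 51.8 CPM in WT and 49.1 and 83.6 CPM in KD (0.24 ± 0.27, edgeR adjusted p = 0.589). In both genes the KD libraries enclosed the WT libraries. With offsets they no longer did: SEMA3C measured 127 and 131 CPM in WT and 179 and 191 CPM in KD (0.52 ± 0.10, edgeR adjusted p = 0.0389, under the fold limit), and SEMA3B turned to -0.28 ± 0.13 (edgeR adjusted p = 0.223), with 71.2 and 59.3 CPM in WT and 51.2 and 57.1 CPM in KD. SEMA6B, a membrane-bound ligand of class A plexins including PLXNA4, measured 42.9 and 41.7 CPM in WT and 25.3 and 48.2 CPM in KD (-0.25 ± 0.31, edgeR adjusted p = 0.605). With offsets it was called lower (-0.84 ± 0.13, edgeR adjusted p = 0.0245), its exons being 68.3% GC. SEMA4B, named after its values were seen as the other semaphorin called by DESeq2, measured 53.9 and 52.1 CPM in WT and 79.3 and 129 CPM in KD (DESeq2 log2 fold change 0.94, adjusted p = 0.0344), and was not called with offsets (0.52, edgeR adjusted p = 0.0550, under the fold limit).

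VEGF ligands and receptors gave 0 calls in edgeR among 5 tested of 8, 0 at an unadjusted p under 0.05 and 0 in DESeq2, with a median of -0.04. VEGFC measured 77.2 CPM in both WT libraries and 77.5 and 95.0 CPM in KD (0.15 ± 0.19). VEGFA, a VEGF ligand of NRP1, measured 382 and 396 CPM in WT and 320 and 431 CPM in KD (-0.05 ± 0.20). With offsets its corrected levels were 442 and 441 CPM in WT and 325 CPM in both KD libraries (-0.44 ± 0.10, edgeR adjusted p = 0.0579, under the fold limit). VEGFB stood at 0.34 ± 0.22 (-0.14 ± 0.11 with offsets) and the receptor KDR at -0.04 ± 0.27, while FLT1 had 0 counts in every library.

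Co-receptors and surface partners gave 0 calls among 6 tested of 9, 0 higher and 1 lower at an unadjusted p under 0.05, and 0 in DESeq2. Of all 10963 genes, 1290 were higher and 1250 lower at that p. The 1 lower gene, named after its values were seen, was NRCAM (-1.74 ± 0.53, edgeR adjusted p = 0.194). It rests on only 25 and 29 reads in WT and 6 and 1 in KD, and DESeq2 gave it no adjusted p. ITGB1, the integrin chain that binds SEMA7A, stood at -0.26 ± 0.20, MET at -0.30 ± 0.18, ERBB2 at 0.41 ± 0.23 and MST1R at 0.13 ± 0.28 on the log2 scale. With offsets ITGB1, MET and ERBB2 were between -0.10 and -0.01, and MST1R turned to -0.32 ± 0.13 (edgeR adjusted p = 0.175), with corrected levels of 42.7 and 40.3 CPM in WT and 30.6 and 36.7 CPM in KD. PTK7, named after its values were seen, was the one gene of the list called with offsets (-0.60 ± 0.11, edgeR adjusted p = 0.0364).

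Cytoplasmic effectors numbered 24 tested of 31. The edgeR test called 0, with 5 higher and 1 lower at an unadjusted p under 0.05, and DESeq2 called 4 of the 21 it adjusted, all higher. Over all 10963 genes, 1290 were higher and 1250 lower at that unadjusted p, and DESeq2 called 5.52% of the 7765 genes it adjusted higher. CFL1, the actin-severing protein cofilin, measured 686 and 748 CPM in WT and 995 and 1610 CPM in KD (0.86 ± 0.26, edgeR adjusted p = 0.194, DESeq2 adjusted p = 0.0364). The other DESeq2 calls, named after their values were seen, were RRAS, a GTPase that plexins inactivate (DESeq2 log2 fold change 1.07), GIPC1, which binds the tail of NRP1 (0.83), and LIMK1, the kinase that inactivates cofilin (0.81). These 4 genes have exons of 54.6% to 63.9% GC, and with offsets 0 effectors were called in either tool. In edgeR with offsets, CFL1 (0.53, adjusted p = 0.0746), RRAS (0.49, adjusted p = 0.0875) and GIPC1 (0.38, adjusted p = 0.0707) missed only the fold limit. LIMK1 (0.39, adjusted p = 0.117) missed both limits. RHOA (0.05 ± 0.17), DPYSL2, the collapsin response mediator CRMP2 (-0.05 ± 0.19), and RANBP9 (-0.19 ± 0.20) differed by about their errors or less. Whether GC content accounts for the calls lost under the offsets was not tested.

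**Figure D5:**
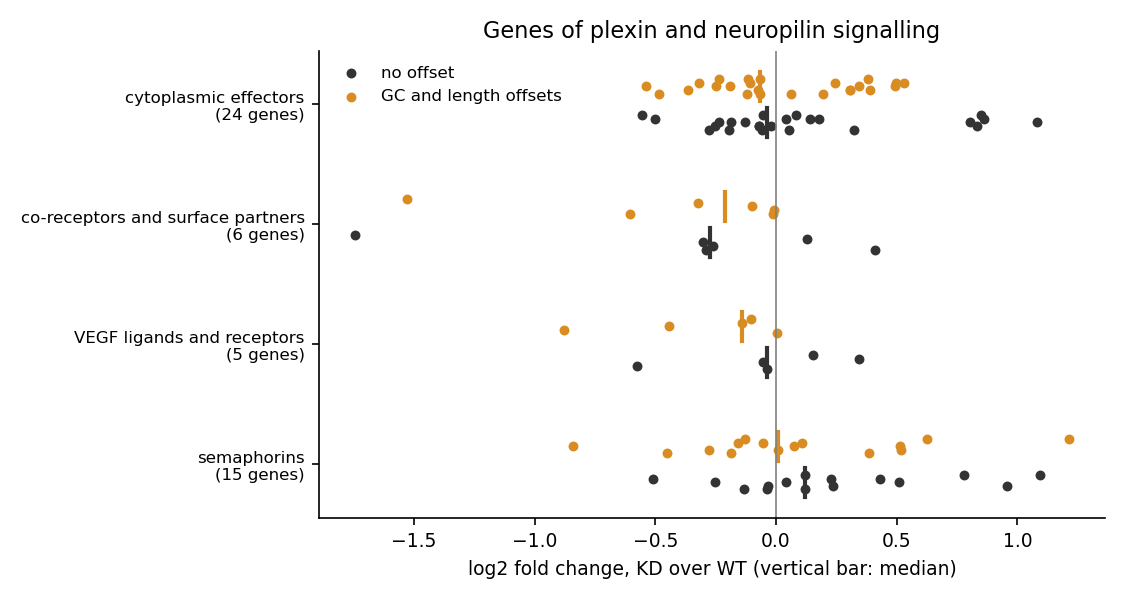
Log2 fold change of mH2A1.1 KD over WT in edgeR for each tested gene of 4 lists, without offsets (black) and with GC and length offsets (orange), with vertical bars at the medians. Cytoplasmic effectors reach 1.08 without offsets and 0.53 with them, and the median of the semaphorins goes from 0.12 to 0.01.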

How the data were processed

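The deposited RNA-seq values are raw read counts for each gene. The authors aligned with STAR 2.5.1 to GRCh38 and applied a mapping-quality filter, duplicate removal and htseq-count with its defaults. The annotation is not given in the sources used here. By default htseq-count counts reads on the strand of the gene, whereas the TruSeq stranded kit used gives reads from the opposite strand. As abundant genes such as VIM held 10000 or more counts in every library, sense transcripts were counted, but whether antisense reads were also counted is not known, and overlapping genes are uncertain. Duplicate removal without molecular identifiers also lowers counts of densely covered genes. Deposited peaks, which give positions only, are the authors' normR enrichment over input, with parameters adjusted per antibody, 1 library each. Input and PCHiC samples are not analysed here.

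Identifiers were matched to GENCODE 44 (23061 of 23167). Genes outside chromosomes 21, 22, X, Y and M were tested with edgeR 4.0.16 (filterByExpr, TMM, quasi-likelihood test, R 4.3.3). A call needed more than a 1.5-fold difference and an adjusted p (Benjamini-Hochberg) below 0.1. DESeq2 1.42.0, other filters and scalings, GC and length offsets (lowess span 0.3) and left-out libraries were alternatives. Scripts were tested on simulated data. GC content and length were those of the merged exons. CPM used TMM library sizes. Gene starts were the GENCODE gene ends, and overlap meant 1 bp or more.

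The 8 genes and all lists were chosen with earlier results of these data known. From each list the text names called genes and otherwise the 4 highest in WT per kb of exon, and for PLXNA4 the 5 long genes nearest in covered shares. Genes named outside that rule are marked in the text. No column of samples outside the series was present. RefSeq promoter entries were matched for 7 of the 8 genes.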

Additional observations from a re-analysis of the deposited data

How the results depend on the processing

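Counts of calls depended strongly on the tool and the settings. Over all genes, edgeR called 0, also with the whole table, with DESeq2 size factors and at an adjusted p under 0.05 with no fold limit. It called 3 with library sizes only, 2139 with no filter and 588 with GC and length offsets. DESeq2 called 874, 429 with offsets and 945 on the whole table. Leaving out 1 library gave 2 to 4744 calls in edgeR, the highest without KD replicate 1 and 909 without KD replicate 2. Chosen after seeing the data, DESeq2 gave 383 without KD replicate 2 and 3580 without KD replicate 1, and edgeR with offsets 657 without KD replicate 2. Where a KD library was left out, the lone KD library was assumed to vary like the WT pair. Where a WT library was left out, the lone WT library was assumed to vary like the KD pair.

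Among the 8 genes, calls were 0 in edgeR, 2 in DESeq2, 2 with no filter, 1 in DESeq2 on the whole table, 0 to 5 with a library left out in edgeR (5 without KD replicate 1) and 4 in DESeq2 without KD replicate 1. In the 4 pathway lists together, calls were 0 in edgeR, 6 in DESeq2, 8 with no filter, 3 with offsets in edgeR and 3 in DESeq2, 5 in DESeq2 on the whole table, and 0 to 13 with a library left out (7 without KD replicate 2, 13 without KD replicate 1). The alternatives chosen after seeing the data gave 4 and 12 in DESeq2 without KD replicates 2 and 1, and 4 with offsets without KD replicate 2.

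The labels share only a number between groups, and same-numbered libraries deviated together at r = 0.252 in 1 pair of deviations, which does not pair them. With the replicate block, edgeR called 2208 genes, 2 of the 8 genes and 8 of the pathway lists, and with the replicate block and offsets 867, 0 and 4.

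PLXNA1 changed sign with offsets (-0.30 in edgeR, -0.29 in DESeq2, -0.32 with the block, -0.53 without KD replicate 2) and without KD replicate 2 (-0.35 in both tools). PLXNA4 changed sign without WT replicate 2 (0.09) and without KD replicate 1 (0.28 in edgeR, 0.23 in DESeq2). With a library left out in edgeR, PLXNA1 ranged from -0.35 to 0.67 and PLXNA4 from -0.43 to 0.28. The other 6 genes kept their direction in every alternative run; the cause of the sign changes was not tested.

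Genes with an mH2A1.1 peak over the body numbered 8, 6 with common peaks, and 4 when at least 50% of a peak had to be shared with mH2A1. At the start the numbers were 7, 5 and 2. Shares over all protein-coding genes are given only for the full mH2A1.1 list, so the smaller counts have no background. Depth limits PLXNC1, PLXNA4 and PLXNB1, which had under 100 reads in every library.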
